A study of Homo sapiens with 5 samples.

Results

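Interferon-stimulated genes are the genes that cells switch on in answer to interferon, and they were followed here in KM-H2, an established line of Hodgkin lymphoma cells of B-cell origin. A list of 45 such genes was taken by name. This list and those used below were chosen with earlier results of these data known. The array had a probe set carrying 1 gene symbol from the list for 38 of the 45, out of 7713 genes in all. SP110 had more than 1 such probe set, and the one with the highest mean stood for it. IFIT2, IFI35, SAMHD1, TRIM14, TRIM22, RSAD2 and PARP9 have no such probe set in the annotation table used and were not analysed here. The cells had been cultured for 16 hours in medium with 30 uM LY294002 (2 arrays) or with the control DMSO (3 arrays), and neither group carried any further treatment or genetic change in the labels. The design planned 3 arrays a group, and 1 with high background was left out by the authors, per the series design text. LY294002 is a morpholine-bearing inhibitor of phosphoinositide 3-kinase that also binds mTOR and BET bromodomain proteins. No label says that replicates were grown as separate cultures, so that p-values cover the spread among the 5 arrays, whose source may be technical.

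Type I interferons bind the receptor IFNAR and activate the kinases JAK1 and TYK2. The signal leads to a complex with IRF9 that binds a GAAA repeat, the interferon-stimulated response element, in the promoters of interferon-stimulated genes. Interferon gamma acts largely through promoters with the TTCNNNGAA element and induces IRF1 among others. The products block viruses at entry, sense and degrade foreign RNA, or feed back on the signal, and many are expressed at a basal level without added interferon.

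Promoter sequences are shown to let the shared element be seen beside the values that follow. They come from RefSeq (build GRCh38.p14), and 29 of the 38 genes matched by symbol. The windows searched run from 250 bases before to 50 bases after the start site. GAAANNGAAA, the core of the interferon-stimulated response element, was searched on both strands (TTTCNNTTTC on the other) and lay in 20 of the 29 genes (69.0%), against 4.59% of 6209 genes of the array with a promoter entry. TTCNNNGAA, which reads the same on both strands, lay in 8 of 29 (27.6%), against 9.52%. The genes were listed for being interferon-stimulated, so both shares describe the list. A match of letters is not a measured binding site, and the arrays did not measure binding. The stretches below, 5′ to 3′ and all upstream of the start site, hold the matches of both elements in capitals. In IFI27, the gene with the largest difference, the sequence covers chr14:94110486-94110735, plus strand, and its GAAANNGAAA matches begin 108 and 95 bases before the start site. A TTCNNNGAA match begins 101 bases before it and overlaps both, so that the capitals form 1 run; the gene has a second start site further along, and its window holds the same matches. For comparison, IFIT1 and GBP1 (both lower with LY294002 on every array), IFI6 (differing between the LY294002 arrays) and ISG15 (higher) each carry the GAAA element. In ISG15 it is a pair of overlapping matches. None of these windows holds an exact TTCNNNGAA match. Variants of that element were not searched, so its absence from a window was not shown. The window of IRF1 (higher) holds TTCNNNGAA without the GAAA element, and that of IFI27 holds both. Both elements also lie in a window of IFITM1 and of MX1 (lower) and of BST2 (groups overlapping).
IFI27: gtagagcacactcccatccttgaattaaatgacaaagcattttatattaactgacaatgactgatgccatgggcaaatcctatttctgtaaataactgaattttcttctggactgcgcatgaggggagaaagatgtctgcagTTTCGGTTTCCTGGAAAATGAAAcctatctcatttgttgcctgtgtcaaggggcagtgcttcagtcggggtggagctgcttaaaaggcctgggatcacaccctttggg
IFIT1, chr10:89392492-89392544, plus strand: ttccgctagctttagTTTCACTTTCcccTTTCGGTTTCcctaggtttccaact
GBP1, chr1:89065311-89065350, minus strand: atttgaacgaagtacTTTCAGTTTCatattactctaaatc
IFI6, chr1:27672261-27672363, minus strand: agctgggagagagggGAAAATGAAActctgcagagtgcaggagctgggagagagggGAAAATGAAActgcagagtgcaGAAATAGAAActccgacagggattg
ISG15, chr1:1013369-1013414, plus strand: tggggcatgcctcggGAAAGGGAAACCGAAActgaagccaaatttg
IRF1, chr5:132490874-132490912, minus strand: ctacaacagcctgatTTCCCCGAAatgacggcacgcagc

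All values are the deposited probe set values on a log2 scale. Array medians lay between 6.26 and 6.29, and the upper quartile was 7.69 on LY294002 replicate 1 against 7.60 to 7.62 on the others. Of 6 Hodgkin cell markers 6 were measured, and their mean level was 7.89 to 8.02 with DMSO and 7.83 to 7.88 with LY294002. That mean averages opposite shifts, and the groups were apart for all 6. Over all genes, both LY294002 arrays lay below every DMSO array for 13.4% and above every one for 16.2%. TNFRSF8 (-0.68), CCL17 (-0.37), FSCN1 (-0.30) and CCL22 (-0.28) were lower, and IRF4 (0.66) and TRAF1 (0.38) were higher. Of these 6 markers only IRF4 passed the limma threshold (adjusted p = 0.0473). For 4 of 6 B-lineage markers the mean level was 6.59 to 6.66 with DMSO and 6.35 to 6.37 with LY294002. Of these MS4A1, which encodes CD20, was at 10.57, 10.43 and 10.24 with DMSO and 9.59 and 9.25 with LY294002, a difference of -0.999 ± 0.15 (limma adjusted p = 0.0730), while POU2AF1, CD79A and CD79B lay below the median of all probe sets and differed by -0.14, 0.057 and 0.010. The 5 T-cell markers were at 7.42 to 7.44 and 7.20 to 7.37, 3 of 5 myeloid markers at 5.30 to 5.34 and 5.25 to 5.35, and 4 of 5 fibroblast markers at 5.28 to 5.39 and 5.08 to 5.20. The part of these marker shifts in the results below was not tested.

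Basal expression of the interferon-stimulated genes came first. Of the 38 genes, 24 had a mean above 6.27, the median over all probe sets, and 14 lay below it. Their own median level was 6.84, with a range from 4.64 (RIGI) to 11.23 (IFITM1). A probe set's brightness depends on its probes as well as on its RNA, so levels are not compared between genes beyond this. The plot of levels by array shows each gene's 5 values.

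**Figure D1:**
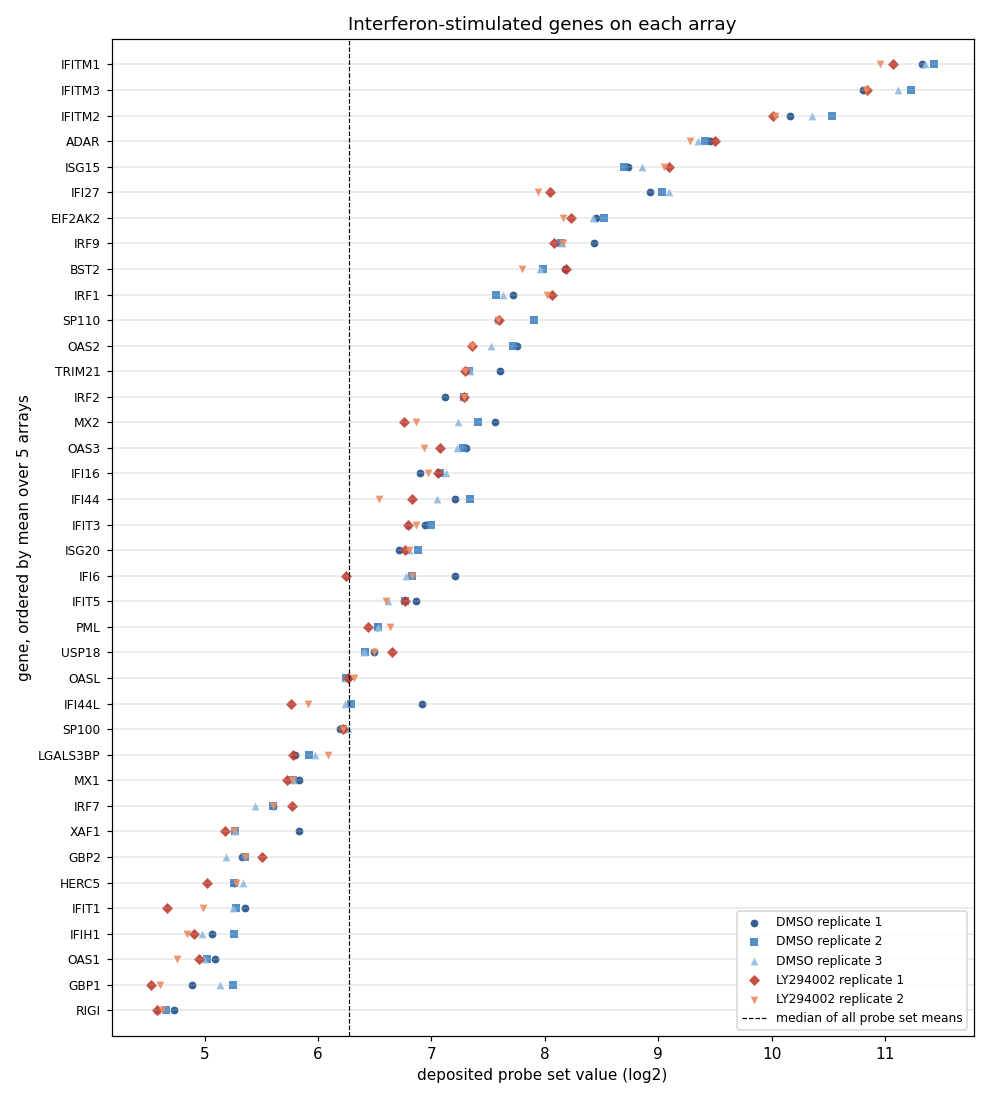
Deposited log2 value (horizontal axis) of the 38 interferon-stimulated genes (vertical axis, ordered by mean) on 3 DMSO arrays (blue symbols) and 2 LY294002 arrays (red and orange symbols); the dashed line is the median of all probe set means. The 24 genes down to USP18 have their mean above the line.

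LY294002 was set against DMSO to ask which of these genes respond when the inhibitor is present. IFI27 fell with LY294002 and was the 1 gene of 38 past the limma threshold (adjusted p under 0.05) in the downward direction; 0 rose past it. The background was 0.298% of all 7713 genes called lower and 0.609% called higher. Because the list was chosen with earlier results known, its counts beside such shares are a description and not a test. Beyond the calls, both LY294002 arrays lay below every DMSO array for 16 of the 38 genes and above every one for 2, ISG15 and IRF1. Over all genes those shares were 13.4% below and 16.2% above. Unadjusted limma p-values under 0.05 were found for 11 of the 38 with lower and 2 with higher values, against 6.50% and 10.6% of all genes. The log2 difference was below 0 for 29 of 38 genes (76.3%, against 55.5% of all genes), and its median was -0.11 beside -0.011 over all genes. Without DMSO replicate 1, the highest DMSO array for 18 of the 38 genes, the median was -0.062. In RNA from a whole culture, fewer cells with a transcript and less of it per cell cannot be told apart.

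Each LY294002 array was also read on its own against the 3 DMSO arrays. On LY294002 replicate 1 the median difference of the 38 genes from the DMSO mean was -0.12, and 22 genes lay below every DMSO array and 7 above. The background on that array was 38.5% below and 28.6% above, with a median of -0.015. On LY294002 replicate 2 the median of the 38 was -0.11, with 19 below and 5 above, against 24.3% and 28.5% of all genes and a median of -0.00083. Each array thus placed at least 19 of the 38 genes under the DMSO range. For 6 genes only replicate 1 was below that range, and for 3 only replicate 2, against 25.0% and 10.8% of all genes.

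**Figure D2:**
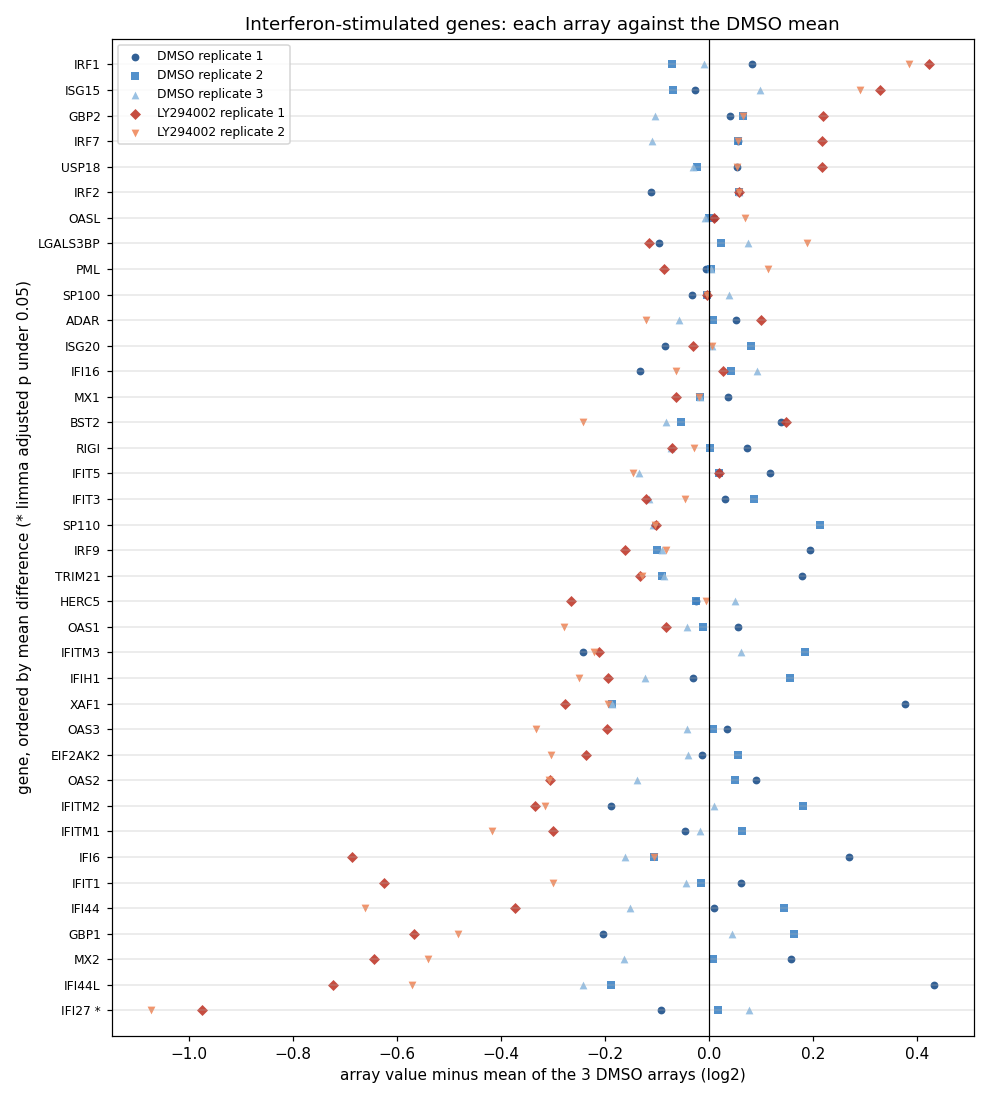
Log2 difference of each array from the mean of the 3 DMSO arrays (horizontal axis) for the 38 genes (vertical axis, ordered by the mean LY294002 difference); the star marks the gene past the limma threshold. IFI27 stands near -1 on both LY294002 arrays, IRF1 and ISG15 stand to the right of all DMSO points, and IFI6 shows the 2 LY294002 arrays far apart.

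IFI27 and IFI6 encode small hydrophobic proteins of one family, found at mitochondria and inside the cell's membranes. IFI27 stood at 8.93, 9.03 and 9.09 with DMSO and 8.04 and 7.94 with LY294002, where values, here and below, follow the order of the replicates. The groups did not overlap, and each LY294002 array lay about as far below DMSO as the other (-0.98 and -1.07 from the DMSO mean). The difference was -1.03 ± 0.065 (SE of the fit, n = 3 and 2), a 2.03-fold lower level, with limma adjusted p = 0.0200. Leaving out 1 array ended the call in each case, with limma adjusted p = 0.0755 without DMSO replicate 1, 0.155 without DMSO replicate 2, 0.141 without DMSO replicate 3, 0.124 without LY294002 replicate 1 and 0.0700 without LY294002 replicate 2. Over these fits its size stayed between -1.07 and -0.98. IFI6 stood at 7.20, 6.83 and 6.77 with DMSO and 6.25 and 6.83 with LY294002. Its LY294002 arrays disagreed: replicate 1 was the lowest of all 5 arrays (-0.69 from the DMSO mean), and replicate 2 held the same value as DMSO replicate 2. DMSO replicate 1 was the highest array. The mean difference was -0.40 ± 0.23 (limma adjusted p = 0.439). Leaving out LY294002 replicate 1 made it -0.11, and leaving out LY294002 replicate 2 made it -0.69.

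The IFITM proteins sit in membranes and hinder the entry of enveloped viruses. IFITM1 stood at 11.32, 11.43 and 11.35 with DMSO and 11.07 and 10.95 with LY294002, with no overlap and a difference of -0.36 ± 0.056 (limma adjusted p = 0.0767). IFITM2 stood at 10.16, 10.53 and 10.36 with DMSO and 10.01 and 10.03 with LY294002, also with both LY294002 arrays lowest, and differed by -0.33 ± 0.12 (limma adjusted p = 0.271). IFITM3 stood at 10.81, 11.23 and 11.11 with DMSO and 10.84 and 10.83 with LY294002, where DMSO replicate 1 lay below both LY294002 arrays, so that the groups overlapped at -0.22 ± 0.14 (limma adjusted p = 0.453). DMSO replicate 1 was the lowest DMSO array for all 3 genes. The probe sets of all 3 are of the kinds that can bind near-identical transcripts, and a value may mix RNA of its relatives. That limit is not particular to the IFITM genes. Those used for EIF2AK2, ISG15, IFI44, OAS1, OASL and some other genes are of these kinds too. IFITM1 passed the threshold after quantile normalization (-0.29, limma adjusted p = 0.0301) and without dim probe sets (limma adjusted p = 0.0481).

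Members of the IFI44 and IFIT groups, induced strongly by type I interferon, lay below DMSO in part. IFI44, a protein of the cytoplasm that slows cell growth, stood at 7.21, 7.34 and 7.05 with DMSO and 6.83 and 6.54 with LY294002; both LY294002 arrays were lowest, at -0.52 ± 0.13 (limma adjusted p = 0.158). Its neighbour IFI44L stood at 6.92, 6.29 and 6.24 with DMSO and 5.76 and 5.91 with LY294002, a difference of -0.65 ± 0.23 (limma adjusted p = 0.279). The LY294002 arrays of IFI44L were again lowest, and DMSO replicate 1 stood well above the other DMSO arrays; without it the difference was -0.43. IFIT1, which binds viral RNA that lacks the host's cap mark, was dim and stood at 5.35, 5.27 and 5.25 with DMSO and 4.66 and 4.99 with LY294002, a difference of -0.46 ± 0.11 (limma adjusted p = 0.143) with no overlap. LY294002 replicate 1 gave the larger part of it (-0.63 against -0.30). The related IFIT3 stood at 6.94, 6.996 and 6.80 with DMSO and 6.79 and 6.86 with LY294002 and IFIT5 at 6.87, 6.77 and 6.62 with DMSO and 6.77 and 6.60 with LY294002. In both the groups overlapped, at -0.084 ± 0.072 and -0.064 ± 0.096. The difference was below 0 for all 3 measured IFIT genes, and the contrast of IFIT1 with the others was not tested. IFI16, a sensor of DNA in the nucleus, stood at 6.90, 7.08 and 7.13 with DMSO and 7.06 and 6.97 with LY294002, with the LY294002 arrays inside the DMSO range.

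Among the GTPases, MX2, a dynamin-like protein that blocks HIV at the nuclear pore, stood at 7.56, 7.41 and 7.24 with DMSO and 6.76 and 6.86 with LY294002. Both LY294002 arrays lay below every DMSO array, at -0.59 ± 0.11 (limma adjusted p = 0.0949) and 1.51-fold lower; after quantile normalization it passed (-0.62, limma adjusted p = 0.0403). GBP1, a guanylate-binding protein induced mostly by interferon gamma, was dim and stood at 4.89, 5.25 and 5.13 with DMSO and 4.52 and 4.61 with LY294002, without overlap, at -0.52 ± 0.12 (limma adjusted p = 0.139). Its relative GBP2 stood at 5.33, 5.35 and 5.18 with DMSO and 5.51 and 5.35 with LY294002, a difference of 0.14 ± 0.077 with the groups overlapping. MX1, the classic marker of the type I response, lay below the median of all probe sets at 5.83, 5.78 and 5.78 with DMSO and 5.73 and 5.77 with LY294002. Its LY294002 arrays were lowest, replicate 2 only just, and the difference was -0.042 ± 0.035 (limma adjusted p = 0.529).

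The 2'-5' oligoadenylate synthetases make the messenger that activates RNase L. OAS2 stood at 7.76, 7.72 and 7.53 with DMSO and 7.36 and 7.36 with LY294002, with both LY294002 arrays lowest and nearly equal, at -0.31 ± 0.079 (limma adjusted p = 0.169). OAS3 stood at 7.30, 7.28 and 7.23 with DMSO and 7.07 and 6.94 with LY294002, also separated, at -0.27 ± 0.054 (limma adjusted p = 0.116); it passed after quantile normalization (-0.32, limma adjusted p = 0.0396). OAS1, below the median, stood at 5.09, 5.02 and 4.99 with DMSO and 4.95 and 4.75 with LY294002, lowest on both LY294002 arrays at -0.18 ± 0.072 (limma adjusted p = 0.315); without LY294002 replicate 2 the difference was -0.084. OASL, a relative without that activity, stood at 6.26, 6.25 and 6.24 with DMSO and 6.26 and 6.32 with LY294002 with the groups overlapping, and its contrast with the other 3 was not tested. The exonuclease gene ISG20 stood at 6.72, 6.88 and 6.81 with DMSO and 6.77 and 6.81 with LY294002, and its LY294002 arrays lay inside the DMSO range.

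The sensors of double-stranded or foreign RNA did not all separate. EIF2AK2, the kinase PKR that halts translation on double-stranded RNA, stood at 8.45, 8.52 and 8.43 with DMSO and 8.23 and 8.16 with LY294002. Its groups were apart on every array, at -0.27 ± 0.045 (limma adjusted p = 0.0820), and it passed after quantile normalization (-0.34, limma adjusted p = 0.0205). ADAR, which edits double-stranded RNA, stood at 9.46, 9.41 and 9.35 with DMSO and 9.50 and 9.28 with LY294002. LY294002 replicate 1 was its highest and replicate 2 its lowest array, so that the mean difference of -0.012 ± 0.080 averages opposite positions. IFIH1, the sensor MDA5, was dim at 5.07, 5.26 and 4.98 with DMSO and 4.91 and 4.85 with LY294002, lowest on both LY294002 arrays, at -0.22 ± 0.092 (limma adjusted p = 0.339). RIGI, the sensor RIG-I, was dim and stood at 4.73, 4.66 and 4.58 with DMSO and 4.58 and 4.63 with LY294002, within the DMSO range.

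ISG15 and IRF1 were the genes of the list that lay above DMSO on both LY294002 arrays. ISG15, a ubiquitin-like protein joined to newly made proteins, stood at 8.74, 8.69 and 8.86 with DMSO and 9.09 and 9.05 with LY294002. Both LY294002 arrays lay above every DMSO array, at 0.31 ± 0.060 (limma adjusted p = 0.106) and 1.24-fold higher. IRF1, an activator induced by interferon gamma and by NF-kB, stood at 7.72, 7.57 and 7.63 with DMSO and 8.06 and 8.02 with LY294002, again without overlap, at 0.40 ± 0.055 (limma adjusted p = 0.0636) and 1.32-fold higher. IRF1 passed after median centring (limma adjusted p = 0.0499) and without dim probe sets (0.0389). Within the ISG15 system, USP18, the protease that removes ISG15 and damps the receptor, stood at 6.49, 6.41 and 6.40 with DMSO and 6.65 and 6.49 with LY294002. LY294002 replicate 1 was its highest array and replicate 2 equalled DMSO replicate 1, at 0.13 ± 0.063 (limma adjusted p = 0.384). HERC5, the ligase that attaches ISG15, was dim at 5.26, 5.26 and 5.34 with DMSO and 5.02 and 5.28 with LY294002 and lowest on LY294002 replicate 1 alone.

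The other IRF factors had overlapping groups. IRF9, the DNA-binding part of the type I complex, stood at 8.43, 8.14 and 8.15 with DMSO and 8.08 and 8.16 with LY294002, with DMSO replicate 1 highest and the groups overlapping at -0.12 ± 0.11 (limma adjusted p = 0.549). IRF2, which competes with IRF1, stood at 7.12, 7.29 and 7.29 with DMSO and 7.29 and 7.29 with LY294002, the same deposited value on 4 of 5 arrays. IRF7, which amplifies interferon production, was below the median and stood at 5.61, 5.61 and 5.44 with DMSO and 5.77 and 5.61 with LY294002, highest on LY294002 replicate 1. Identical values on arrays of one group were found for 7 of the 38 genes and for 38.1% of all genes, and the spread between those arrays is then 0.

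Genes of nuclear bodies had overlapping groups throughout. PML, the scaffold of these bodies, stood at 6.52, 6.53 and 6.53 with DMSO and 6.44 and 6.64 with LY294002, lowest on LY294002 replicate 1 and highest on replicate 2. SP110 stood at 7.59, 7.91 and 7.59 with DMSO and 7.59 and 7.59 with LY294002 on its brighter probe set, at -0.10 ± 0.12, and differed by 0.040 on its other one, so its probe sets disagree in sign. SP100, just below the median, stood at 6.19, 6.22 and 6.26 with DMSO and 6.22 and 6.22 with LY294002. The ubiquitin ligase and antibody receptor TRIM21 stood at 7.60, 7.33 and 7.34 with DMSO and 7.29 and 7.29 with LY294002, with both LY294002 arrays lowest by a small margin and DMSO replicate 1 apart, at -0.13 ± 0.097 (limma adjusted p = 0.491); without DMSO replicate 1 the difference was -0.043.

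BST2, or tetherin, which holds budding viruses at the cell surface, stood at 8.18, 7.99 and 7.96 with DMSO and 8.19 and 7.80 with LY294002. As with ADAR, LY294002 replicate 1 was its highest and replicate 2 its lowest array, and the mean difference was -0.048 ± 0.14. XAF1, a pro-apoptotic partner of XIAP, lay below the median at 5.83, 5.27 and 5.27 with DMSO and 5.18 and 5.26 with LY294002; its groups did not overlap, but DMSO replicate 1 alone stood apart, and without it the difference of -0.24 ± 0.20 became -0.047. LGALS3BP, a secreted galectin-binding protein, stood at 5.80, 5.92 and 5.97 with DMSO and 5.78 and 6.09 with LY294002, lowest on LY294002 replicate 1 and highest on replicate 2. DMSO replicate 1 was the highest DMSO array for 18 of the 38 genes (47.4%), against 25.0% of all genes.

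**Figure D3:**
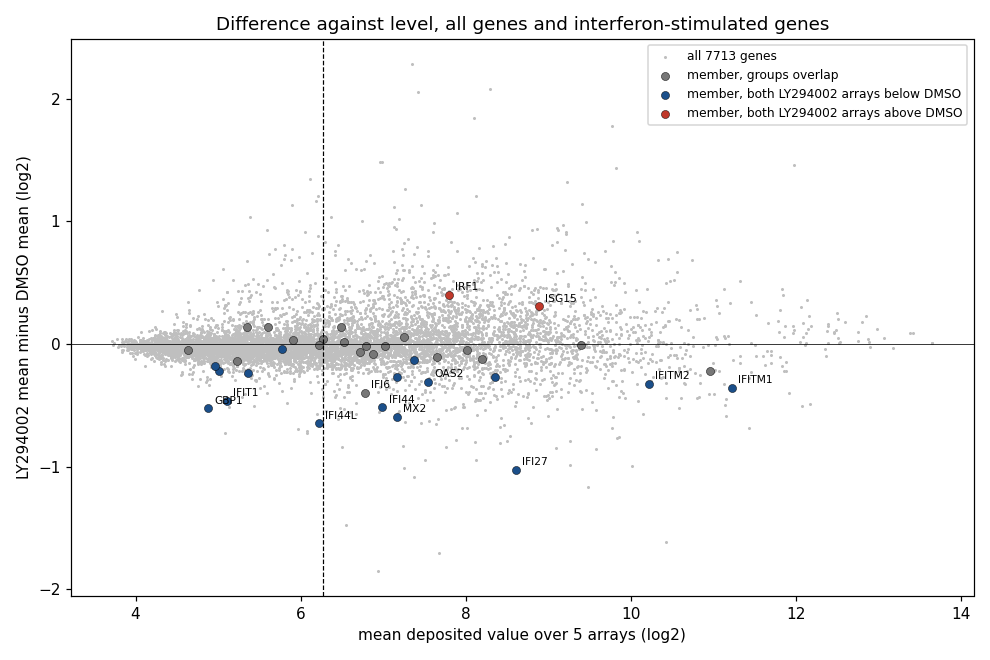
LY294002 mean minus DMSO mean (log2, vertical axis) against the mean value over 5 arrays (log2, horizontal axis) for 7713 genes (grey) and the 38 interferon-stimulated genes, coloured by whether both LY294002 arrays lie below (blue, 16 genes), above (red, 2) or neither below nor above the DMSO arrays (dark grey, 20). IFI27 is lowest of the 38; the dashed line is the median of all probe set means.

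Genes on both sides of the median of all probe sets stood apart from DMSO. Of the 24 genes above the median, 9 had both LY294002 arrays below DMSO and 2 had both above, against 15.6% and 24.7% of the 3863 genes above it. Of the 14 below the median, 7 had both below and 0 above, against 11.2% and 7.58% of the 3850 genes below it. The median difference was -0.11 above and -0.094 below the median.

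By promoter, 11 of 13 genes with both LY294002 arrays lowest and a promoter entry held the GAAANNGAAA match shown above for IFI27, as did 8 of 14 whose groups overlapped and ISG15 of the 2 that were higher. The match was thus found on genes that lay below, above or across the DMSO range, and the difference between these shares was not tested.

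Upstream of these genes, 37 of 44 listed genes of the interferon pathway (ligands, receptors, kinases, STAT and IRF factors, sensors and inhibitors) had a probe set. Past the limma threshold 2 rose and 0 fell, beside 0.609% and 0.298% of all genes. At an unadjusted limma p under 0.05, 5 were higher and 4 lower, beside 10.6% and 6.50%, and the median difference was -0.025. JAK1, the kinase shared by the receptors of both interferon types, stood at 8.49, 8.53 and 8.47 with DMSO and 9.55 and 9.31 with LY294002. It rose by 0.94 ± 0.079 (1.91-fold, limma adjusted p = 0.0339), with both LY294002 arrays above all DMSO arrays. Leaving out 1 array ended the call in each case, with limma adjusted p = 0.108 without DMSO replicate 1, 0.169 without DMSO replicate 2, 0.181 without DMSO replicate 3, 0.124 without LY294002 replicate 1 and 0.0685 without LY294002 replicate 2. IRF4, a lymphoid IRF factor that is not induced by interferon, stood at 8.15, 8.35 and 8.18 with DMSO and 8.90 and 8.87 with LY294002 and rose by 0.66 ± 0.071 (limma adjusted p = 0.0473). That call too was lost without any 1 array, with limma adjusted p = 0.115 without DMSO replicate 1, 0.0875 without DMSO replicate 2, 0.215 without DMSO replicate 3, 0.186 without LY294002 replicate 1 and 0.0968 without LY294002 replicate 2.

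No receptor or adaptor gene of the list passed on the deposited values. IFNGR1, a chain of the interferon gamma receptor, was at 7.57, 7.60 and 7.42 with DMSO and 7.98 and 7.92 with LY294002, a difference of 0.42 ± 0.067 (limma adjusted p = 0.0776); it passed after quantile normalization (0.37, limma adjusted p = 0.0386) and without dim probe sets (limma adjusted p = 0.0464). The type I receptor genes were dim, IFNAR1 at 6.03, 6.07 and 6.03 with DMSO and 6.03 and 6.001 with LY294002 and IFNAR2 at 4.77, 4.77 and 4.75 with DMSO and 4.77 and 4.76 with LY294002. MYD88, the adaptor of Toll-like receptors, was at 9.24, 9.28 and 9.12 with DMSO and 8.87 and 8.71 with LY294002, lower on both LY294002 arrays at -0.43 ± 0.074 (limma adjusted p = 0.0877), and passed after quantile normalization (-0.49, limma adjusted p = 0.0186). The measured interferon genes themselves were dim except IFNA21. IFNB1 stood at 5.39, 5.74 and 5.54 with DMSO and 5.44 and 5.51 with LY294002. IFNG stood at 5.04, 5.04 and 5.07 with DMSO and 5.02 and 5.18 with LY294002. IFNA21 lay just above the median of all probe sets, at 6.40, 6.40 and 6.58 with DMSO and 6.12 and 6.40 with LY294002. The groups overlapped in each of these genes. Among the STAT factors of the list, STAT3 stood at 7.75, 8.04 and 7.93 with DMSO and 8.59 and 8.39 with LY294002. It was higher on both LY294002 arrays at 0.58 ± 0.11 (limma adjusted p = 0.101) and passed after quantile normalization (0.52, limma adjusted p = 0.0378). The genes of this paragraph were chosen after their values were seen.

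**Figure D4:**
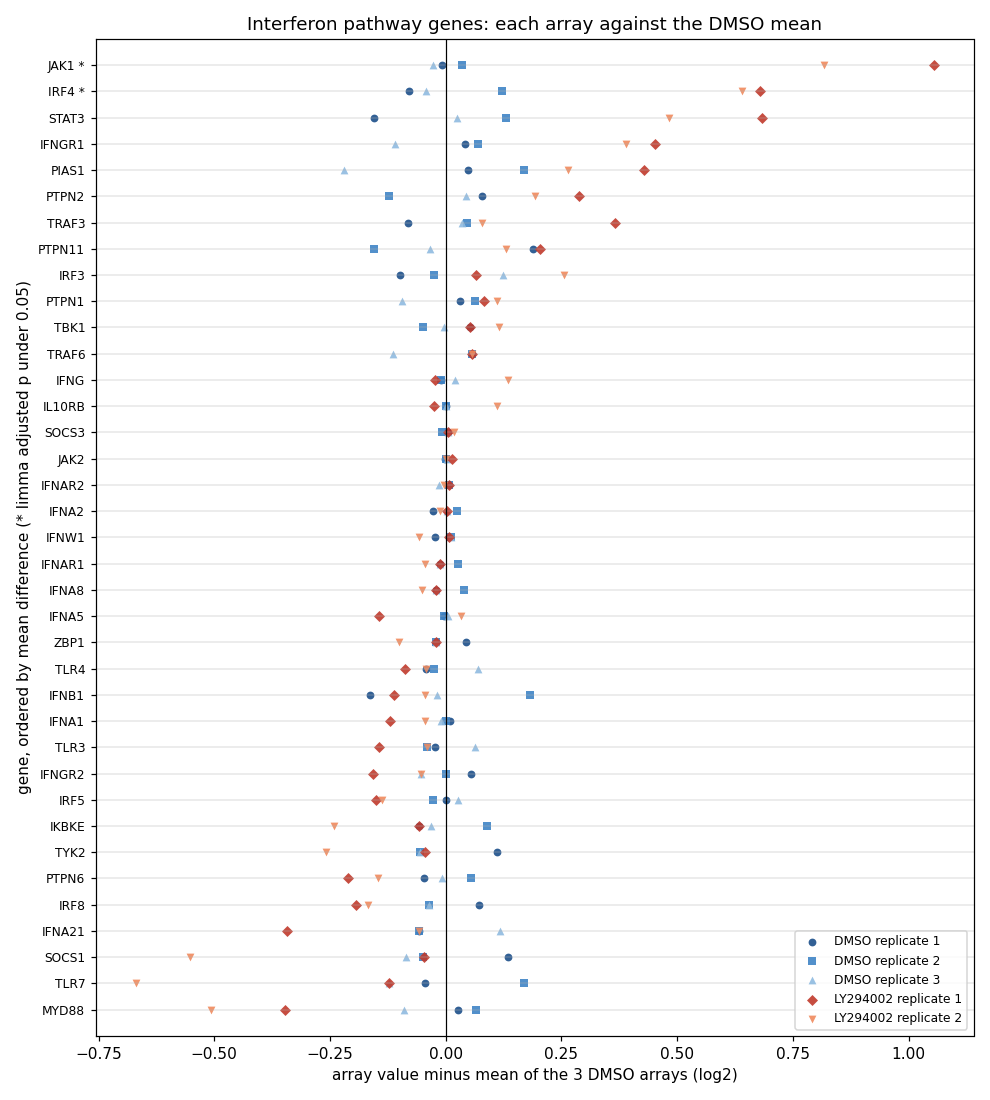
Log2 difference of each array from the mean of the 3 DMSO arrays (horizontal axis) for 37 interferon pathway genes (vertical axis, ordered by the mean LY294002 difference); stars mark genes past the limma threshold. JAK1 and IRF4 lie to the right of all DMSO points, and MYD88 is the lowest by its mean.

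A further 30 interferon-stimulated genes outside both lists, of 46 named, were read the same way. Of these 0 passed limma in either direction, beside 0.298% of all genes lower and 0.609% higher. An unadjusted limma p under 0.05 was found for 8 with lower and 2 with higher values, beside 6.50% and 10.6%, and the median difference was -0.080. Both LY294002 arrays lay below DMSO for 9 and above it for 5 of the 30, beside 13.4% and 16.2% of all genes. The 4 nearest to the threshold, chosen after their values were seen, included both directions. The chemokine gene CXCL11 stood at 6.20, 6.05 and 6.16 with DMSO and 7.07 and 6.81 with LY294002, higher by 0.80 ± 0.096 (limma adjusted p = 0.0518). PSMB8, a subunit of the immunoproteasome, stood at 9.11, 9.35 and 9.26 with DMSO and 8.65 and 8.65 with LY294002, at -0.59 ± 0.077 (limma adjusted p = 0.0580). UBE2L6, the enzyme that passes ISG15 to its ligase, stood at 8.83, 8.93 and 8.997 with DMSO and 8.47 and 8.50 with LY294002, at -0.43 ± 0.059 (limma adjusted p = 0.0630), so it lay lower while ISG15 lay higher. CASP1, the inflammasome caspase, was dim at 5.27, 5.35 and 5.33 with DMSO and 5.03 and 5.02 with LY294002, at -0.29 ± 0.036 (limma adjusted p = 0.0539). All 4 passed after quantile normalization and after median centring.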

How the data were processed

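RNA of KM-H2 cells was hybridised as biotin-labelled cRNA to Affymetrix arrays, per the labels' protocols. The deposited values are on a log2 scale; the authors used affy, an R package, as the submitters' processing notes say, and its version and settings were not given in the sources used here. Of 8793 probe sets 47 controls were left out, and 8746 were fitted as deposited. The platform's annotation gave 7840 probe sets 1 symbol, 388 several and 518 none; a gene is its brightest probe set. LY294002 was compared with DMSO by limma 3.58.1 in R 4.3.3 (lmFit, eBayes, group as the only term, 3 residual degrees of freedom, two-sided, Benjamini-Hochberg over 8746 probe sets at 0.05). The same limma steps were tested on simulated data, which did not cover the choice of probe sets or the counts. A value is below DMSO when it is lower than all 3 DMSO values. All measured members are named; the rule put those above the median of all probe set means first and gave the dimmer ones by range, while the text orders them by role and gives every value. Of the pathway, the rule named those past the threshold. The members and lists were chosen with earlier results of these data known. Alternatives were quantile normalization, median centring, a filter on the dimmest 40%, an intensity trend with a robust prior, the replicate block, probe sets averaged per gene and each array left out. Coordinates belong to the RefSeq promoters; the array files name no build.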

Additional observations from a re-analysis of the deposited data

How the results depend on the processing

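The number of arrays limits every call. Of 70 genes called (23 lower, 47 higher), 1 of the 38 interferon-stimulated genes and 2 of the 37 pathway genes, the fits without 1 array called 0 to 4 genes (0 lower, 0 to 4 higher), 0 of the 38 and 0 of the 37, while 946 to 2085 genes had an unadjusted limma p under 0.05. The counts were 299 (127 lower, 172 higher), 5 and 5 after quantile normalization, 147 (48 lower, 99 higher), 2 and 2 after median centring, and 203 (62 lower, 141 higher), 3 and 3 with the dimmest 40% left out, where fewer probe sets were tested. An intensity trend and robust prior gave 101 genes (26 lower, 75 higher), and probe sets averaged per gene gave 87 (28 lower, 59 higher). The cause of the other shifts was not tested. The median difference of the 38 genes ran from -0.15 to -0.062 over all settings, nearest 0 without DMSO replicate 1, and that of the pathway genes moved to 0.070 without dim probe sets.

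The replicate number as a block gave 0 calls over all genes, so 0 of the 38 and 0 of the 37. At an unadjusted limma p under 0.05 there were 820 genes. IFI27 was at -0.99 (limma adjusted p = 0.348), IFI16 became 0.026 and SP100 0.015. The block leaves fewer than the 3 residual degrees of freedom of the main fit. DMSO replicate 3 is alone in its block, so the differences equal those without that array (IFI27 -0.99 in both). The 0 calls therefore say nothing about pairing. The replicate numbers were not taken as pairing arrays. Across probe sets, replicate 1 minus 2 with DMSO and with LY294002 correlated at -0.11, and with 2 shared numbers the design cannot show more. Genes with differences near 0 changed sign in some fits without 1 array, over which they ranged as follows: ADAR -0.12 to 0.099, BST2 -0.24 to 0.15, SP110 -0.16 to 0.0037, IFI16 -0.086 to 0.026, ISG20 -0.056 to 0.026, IFIT5 -0.15 to 0.019, PML -0.087 to 0.11, SP100 -0.021 to 0.015 and LGALS3BP -0.12 to 0.19. None of the 18 genes with separated groups changed sign in any setting, which their choice on these same arrays largely fixes.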
